A study of Canis lupus familiaris with 21 samples.

Results

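The vascular endothelial growth factor (VEGF) family, its receptors, the angiopoietins and their receptor, and the endothelial adhesion molecule PECAM1 were described in canine cutaneous histiocytoma (CCH), a tumor of dermal Langerhans cells of the dog that often regresses on its own. The members were taken by name. They were the VEGF ligands VEGFA, VEGFB and VEGFC, the VEGF receptors KDR, FLT1 and FLT4, the angiopoietins ANGPT1 and ANGPT2 with their receptor TEK, and PECAM1. All 10 members were found among the 21399 genes of the count table, each in 1 row.

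VEGF-A is the main growth factor of blood vessels, and KDR is the receptor through which it drives endothelial growth and permeability. FLT1 binds VEGF-A tightly and also serves as a receptor for VEGF-B and placental growth factor, and it is found on endothelium and on monocytes. VEGF-C acts through FLT4, the receptor of lymphatic endothelium, while ANGPT1 and ANGPT2 bind TEK on endothelial cells, where ANGPT1 stabilizes vessels and ANGPT2 mostly opposes it.

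RNA was measured by QuantSeq 3′ sequencing of formalin-fixed, paraffin-embedded (FFPE) tumors, a method that reads the 3′ end of each transcript. Group 1 comprised 5 stage 1 tumors, which are rich in tumor cells, from dogs between 0.5 and 5 years of age as far as the labels give it. Group 2a comprised tumor cell-rich areas of 5 stage 2 tumors, from dogs between 0.6 and 3 years of age, and group 2b lymphocyte-rich areas of stage 2 tumors in 6 samples, from dogs between 0.3 and 6 years of age. Group 3 comprised lymphocyte-rich areas of 5 stage 3 tumors, from dogs between 1.5 and 9 years of age. The dogs were privately owned, of various breeds and both sexes, and no treatment is given for any group. Of the 6 samples of group 2b, 2 came from a single dog and 4 were pools of 3 or 4 dogs, whereas each sample of the other groups came from 1 dog. The areas were chosen under the microscope for tumor cells or lymphocytes, so every sample remained a mixture of cell types with its own vessels and stroma. Area and stage were crossed within stage 2 only, so that stage and area cannot be told apart in group 3 against group 1. The comparison of areas below sets groups 2b and 3 against groups 1 and 2a. It therefore also carries differences of stage, and only group 2b against group 2a compares the areas within 1 stage.

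The libraries held 2113393 to 3559404 reads counted on genes. The DV200, the share of RNA fragments above a set length, averaged 68.5% ± 2.46 in group 1, and between 73.2% and 74.6% in the other groups. The youngest age in 1 pooled sample of group 2b and the DV200 of 1 sample of group 3 differ between the labels and the sample list of the study, and the labels were used. The summed normalized count of 10 T cell markers was between 48.2 and 1753 in the tumor cell-rich samples and between 2467 and 4303 in the lymphocyte-rich samples. The summed normalized count of 8 histiocyte markers overlapped between the areas, with 11010 to 19114 in the tumor cell-rich samples and 9870 to 22576 in the lymphocyte-rich samples. Most of this sum came from the markers CD74 and ITGB2, so it says little of the others. It is not a measure of the content of tumor cells. Values are given below as normalized counts, that is, raw counts divided by 1 size factor per sample, with the samples of a group in the order of their replicate numbers. A mean is given ± SD, over n = 5 samples for groups 1, 2a and 3, n = 6 for group 2b, n = 10 for the tumor cell-rich and n = 11 for the lymphocyte-rich samples. These bulk values cannot tell fewer cells of a type from less RNA per cell.

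Across the areas, VEGFB and VEGFC were higher in lymphocyte-rich samples (groups 2b and 3) and FLT4 was lower, while PECAM1, TEK, KDR, FLT1, VEGFA and ANGPT2 did not pass the test. The difference of VEGFC rested on group 2b, and without that group its log2 fold change was 0.29 (adjusted p = 0.62 in edgeR). Between the stages of the same area, 0 of 8 members tested passed in group 2a against group 1, beside 0.527% of all 11200 genes, and 0 of 8 in group 3 against group 2b, beside 0.111% of all 11685 genes. In the comparison of areas, 3 of the 9 members tested reached an adjusted p of 0.05 or less, beside 29.5% of all 12505 genes tested, so the share of members was close to the background. With the additional requirement that the log2 fold change (log2FC) be 1 or more in either direction, 2 of the 9 members were differentially expressed genes (DEGs), beside 11.9% of all genes. These 2 were VEGFB and FLT4. All adjusted p-values are from the quasi-likelihood test of edgeR with Benjamini-Hochberg adjustment over all genes tested.

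VEGFB, a ligand of FLT1 with little effect on vessel growth in most tissues, was the member with the clearest difference between the areas. The gene lies on chromosome 18 at 53328822 to 53332018 of the dog assembly UU_Cfam_GSD_1.0. In group 1 its normalized counts were 45.4, 74.0, 95.6, 71.6 and 55.7, and in group 2a they were 49.2, 52.1, 156, 67.8 and 65.9. In group 2b they ran from 108 over a median of 134 to 163, and in group 3 they were 246, 119, 106, 188 and 179. Of the 10 tumor cell-rich samples, only replicate 3 of group 2a reached the range of the lymphocyte-rich samples, and the other 9 lay below all 11 of them.

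The mean of VEGFB was 73.3 ± 32.4 in tumor cell-rich and 151 ± 41.9 in lymphocyte-rich samples. The difference was 2.07-fold on the fitted scale (log2FC 1.05, SE 0.20, adjusted p = 0.00041). The 2-sided permutation test on log2 of the normalized count plus 1 gave p = 0.00011 from 100000 permutations. The log2FC stayed between 0.96 and 1.25 when each of the 21 samples was left out in turn, and the adjusted p was at most 0.0011 in every one of these fits.

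Ordered by their means, the groups ran from group 3 (168 ± 56.8) over group 2b (137 ± 20.3) and group 2a (78.1 ± 44.1) to group 1 (68.5 ± 19.2). No pair of neighbours in this order passed the test. In group 2b against group 2a, within stage 2, VEGFB had a log2FC of 0.81 (SE 0.27, adjusted p = 0.057). Without replicate 3 of group 2a the value was 1.21 with an adjusted p of 0.0005. The samples of group 3 and of group 1 did not overlap in VEGFB, as in 11.9% of all genes tested in that comparison, and the log2FC was 1.29 (SE 0.27, adjusted p = 0.011). The DV200 also differed between these groups, and with the DV200 as a covariate the adjusted p was 0.13 at a log2FC of 1.35. The part of RNA quality and of T cells in this difference was not tested further.

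VEGFC, the ligand of FLT4 and the main growth factor of lymphatic vessels, was highest in group 2b. It lies on chromosome 16 at 53925224 to 54029839. The samples had 24.6, 85.2, 21.9, 27.6 and 37.1 normalized counts in group 1 and 22.3, 51.1, 44.4, 66.7 and 44.5 in group 2a. In group 2b they ran from 61.5 over a median of 98.1 to 132, and in group 3 they were 57.0, 31.1, 53.3, 39.3 and 77.5. Replicate 2 of group 1 was the sole sample of that group within the range of group 2b, and group 3 lay mostly below group 2b.

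Within stage 2, VEGFC was 2.05-fold higher in lymphocyte-rich than in tumor cell-rich areas, with means of 94.2 ± 27.1 and 45.8 ± 16.0. The log2FC was 1.04 (SE 0.28, adjusted p = 0.019), and the exact 2-sided permutation test gave p = 0.011. In group 2b against group 2a, VEGFC and FLT4 were the 2 DEGs among the 8 members tested, beside 9.55% of all 11545 genes. Restricted to the pooled samples of group 2b, VEGFC had a log2FC of 0.95 (adjusted p = 0.078), and restricted to the 2 single-dog samples of group 2b one of 1.22 (adjusted p = 0.14). Over all 8 alternatives other than leaving out 1 sample, its log2FC lay between 0.95 and 1.22.

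Over all samples, the difference of VEGFC between the areas was a log2FC of 0.72 (SE 0.25, adjusted p = 0.032). It rested on group 2b. Without group 2b the log2FC was 0.29 (adjusted p = 0.62). It was 0.82 (adjusted p = 0.056) without group 2a, 0.66 (adjusted p = 0.076) with only the pooled samples of group 2b and 0.78 (adjusted p = 0.078) with only its single-dog samples. It also missed the threshold in 6 of the 21 fits with 1 sample left out, with adjusted p-values of up to 0.066. These were the fits without replicate 1, 3 or 4 of group 1, replicate 1 of group 2a, replicate 3 of group 2b or replicate 5 of group 3. Group 3, with a mean of 51.6 ± 17.8, was 1.83-fold below group 2b on the fitted scale without passing the test (log2FC -0.87, SE 0.26, adjusted p = 0.21). Below group 2b the order was group 3, group 2a and group 1 (39.3 ± 26.3), and no neighbours in it passed the test.

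VEGFA, located on chromosome 12 at 12398451 to 12413981, was the most abundant VEGF ligand by reads and varied widely within the groups. Its normalized counts were 116, 198, 201, 25.2 and 180.3 in group 1 and 215, 158, 724, 154 and 159 in group 2a. They ran from 122 over a median of 175 to 400.3 in group 2b, and in group 3 they were 93.9, 149, 109, 93.7 and 318. Replicate 3 of group 2a held the highest value of all samples and replicate 4 of group 1 the lowest, both in tumor cell-rich areas.

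The means of VEGFA were 282 ± 248 in group 2a, 211 ± 99.9 in group 2b, 153 ± 95.3 in group 3 and 144 ± 74.9 in group 1. No neighbours in this order, and no other pair of groups, passed the test. The log2FC between the areas was -0.17 (SE 0.35, adjusted p = 0.76), and it was 0.19 without replicate 3 of group 2a, so its direction turned with that sample. Group 2a against group 1 gave a log2FC of 0.97 (SE 0.56, adjusted p = 0.39), which was 0.26 without replicate 3 of group 2a and 0.18 with the DV200 as a covariate.

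**Figure D1:**
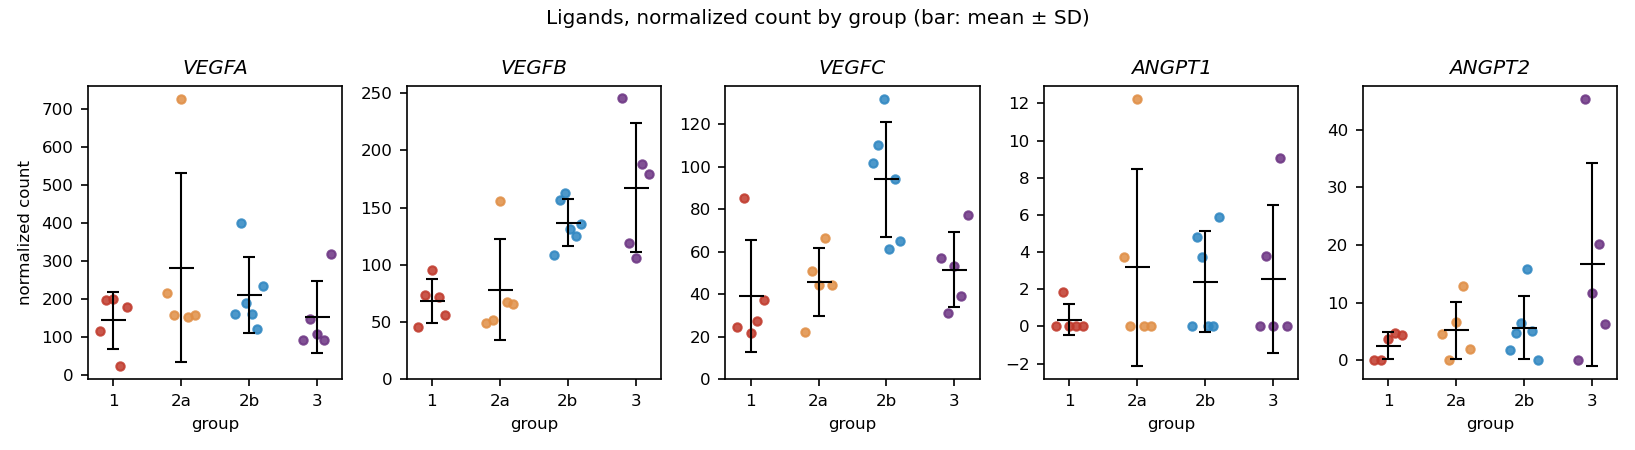
Normalized counts of the VEGF ligands and angiopoietins by group, where each point is 1 sample and the bars show the mean and the SD (linear axes, 1 panel per gene). VEGFB is higher in the lymphocyte-rich groups 2b and 3 (mean 151) than in the tumor cell-rich groups 1 and 2a (mean 73.3), VEGFC has its highest mean in group 2b, and ANGPT1 stays at or near 0.

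The makeup of the ligands is given as a description and was not tested. Since QuantSeq counts 3′ ends, a count does not grow with the length of the transcript, and shares are given as shares of the summed normalized counts of the 3 VEGF ligands. In groups 1, 2a, 2b and 3, respectively, VEGFA made up 53.5% ± 19.0, 65.3% ± 10.8, 46.2% ± 9.15 and 39.7% ± 13.4 of them. VEGFB made up 30.6% ± 15.6, 20.4% ± 3.52, 31.9% ± 5.15 and 46.2% ± 13.4 in the same order. By mean share, VEGFA thus led in the tumor cell-rich groups and in group 2b, while in group 3 the mean share of VEGFB lay above that of VEGFA within their spread. The shares of groups 1 and 2b overlapped within their SD for both genes.

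FLT4, the receptor of VEGF-C, showed the opposite difference to VEGFB. It lies on chromosome 11 at 1405676 to 1445228. In group 1 its normalized counts were 215, 204, 43.7, 124 and 249, and in group 2a they were 481, 150.1, 37.8, 84.2 and 249. In group 2b they ran from 46.5 over a median of 62.7 to 105, and in group 3 they were 68.9, 70.7, 59.2, 93.7 and 81.7. The lymphocyte-rich samples lay in a narrow range, whereas the tumor cell-rich samples spread widely. Of those, 7 lay above every lymphocyte-rich sample, replicate 4 of group 2a lay inside their range, and replicate 3 of group 1 and replicate 3 of group 2a lay below all of them.

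FLT4 averaged 184 ± 131 in tumor cell-rich and 71.5 ± 16.8 in lymphocyte-rich samples. It was 2.56-fold lower in the latter (log2FC -1.36, SE 0.33, adjusted p = 0.0034), and the 2-sided permutation test gave p = 0.011. The log2FC stayed between -1.49 and -1.05 over the 21 fits without 1 sample, with adjusted p-values of at most 0.010. Without group 2b it was -1.29 with an adjusted p of 0.082.

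Within stage 2, FLT4 was 2.93-fold lower in group 2b than in group 2a (log2FC -1.55, SE 0.47, adjusted p = 0.037). This call was unstable. Without replicate 1 of group 2a, the highest sample, the log2FC was -0.94 with an adjusted p of 0.13. The adjusted p was between 0.064 and 0.079 without replicate 5 of group 2a or without any of the replicates 1, 2, 3, 5 and 6 of group 2b. It was 0.13 with only the pooled samples of group 2b (log2FC -1.48) and 0.37 with only its single-dog samples (log2FC -1.68), and the exact 2-sided permutation test gave p = 0.10. By their means, the groups ran from group 2a (200.3 ± 176) over group 1 (167 ± 83.0) and group 3 (74.8 ± 13.2) to group 2b (68.6 ± 20.03). No neighbours in this order passed the test. Group 3 against group 1 came closest, with a log2FC of -1.15 (SE 0.37, adjusted p = 0.053). Of the 10 fits with 1 sample left out, only that without replicate 3 of group 1 passed (-1.41, adjusted p = 0.005). DESeq2 (adjusted p = 0.019) and edgeR without the count filter (adjusted p = 0.045) also put it past the threshold. With the DV200 as a covariate the log2FC was -0.10 (adjusted p = 0.94).

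The markers of lymphatic endothelium, the cells for which FLT4 is best known, were also compared between the areas. The summed normalized count of 6 lymphatic markers was between 15.5 and 198 in the tumor cell-rich and between 46.6 and 134 in the lymphocyte-rich samples. PROX1, the transcription factor that defines lymphatic endothelium, averaged 7.34 in tumor cell-rich and 17.6 in lymphocyte-rich samples (log2FC 1.36, adjusted p = 0.10). LYVE1, a hyaluronan receptor of lymphatic vessels and of some macrophages, averaged 26.4 and 21.3 (log2FC -0.10, adjusted p = 0.90). MMRN1, a protein of lymphatic endothelium and platelets, and RELN, secreted by lymphatic endothelium, were higher in lymphocyte-rich samples, with log2FCs of 1.62 (adjusted p = 0.013) and 1.45 (adjusted p = 0.029). MMRN1 averaged 15.0 against 4.79 and RELN 12.1 against 4.38 normalized counts, which are low levels. In all, 2 of the 5 lymphatic markers tested were higher and 0 were lower, beside 15.2% and 14.3% of all genes, with a median log2FC of 1.36 beside 0.01 over all genes tested. PROX1, MMRN1 and RELN were below the count filter in group 2a against group 1. They entered the comparison of areas largely through the lymphocyte-rich samples, where they were higher. The counts and the median of this list are therefore tilted upward, and no conclusion is drawn from them. The source of the FLT4 reads was not tested.

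KDR was scarce and rested on few reads, 391 in all 21 samples. It lies on chromosome 13 at 48206381 to 48248022. Its normalized counts were 3.78, 5.62, 20.9, 4.72 and 1.09 in group 1, the last of these from a single read, and 8.35, 14.6, 73.3, 22.2 and 12.6 in group 2a. They ran from 10.2 over a median of 22.2 to 31.8 in group 2b, and in group 3 they were 5.0, 35.8, 15.5, 21.2 and 18.9. Except for replicate 3, every sample of group 1 lay below all samples of group 2a and of group 2b.

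KDR averaged 7.23 ± 7.85 in group 1 and 26.2 ± 26.8 in group 2a. The log2FC was 1.83 (SE 0.75) with an unadjusted p of 0.031 and an adjusted p of 0.23 in edgeR. The exact 2-sided permutation test gave p = 0.040. With the DV200 as a covariate, the log2FC of KDR was 0.26 (adjusted p = 0.95), and in 5 of the 10 fits with 1 sample left out KDR fell below the count filter. Group 2b averaged 20.996 ± 8.54 and group 3 averaged 19.3 ± 11.1, and no pair of groups differed in KDR at an adjusted p of at most 0.05. Between the areas the log2FC was 0.54 (SE 0.44, adjusted p = 0.39), and leaving out each sample in turn gave values between 0.37 and 0.98. Without group 2a it was 1.44 (adjusted p = 0.055).

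FLT1 lies on chromosome 25 at 11290416 to 11468726 and had its highest means in stage 2. Its normalized counts were 29.3, 71.1, 16.4, 23.6 and 37.1 in group 1 and 54.7, 47.9, 55.5, 47.9 and 167 in group 2a. In group 2b they ran from 53.2 over a median of 78.7 to 242, and in group 3 they were 56.0, 61.3, 24.2, 32.2 and 62.8. Replicate 5 of group 2a and replicates 2 and 6 of group 2b stood above all others.

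FLT1 averaged 113 ± 75.4 in group 2b, 74.5 ± 51.6 in group 2a, 47.3 ± 17.8 in group 3 and 35.5 ± 21.3 in group 1. No neighbours in this order passed the test. The ends of the order did, with group 2b 3.17-fold above group 1 (log2FC 1.67, SE 0.46, adjusted p = 0.015). These 2 groups differ in stage, in area and in mean DV200 (74.6% in group 2b, 68.5% in group 1), and no alternative fit was run for them. Between groups 3 and 2b the log2FC was -1.26 (SE 0.40) with an unadjusted p of 0.0069 and an adjusted p of 0.23. Between groups 2a and 1 it was 1.07 (SE 0.47) with an unadjusted p of 0.039 and an adjusted p of 0.25.

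**Figure D2:**
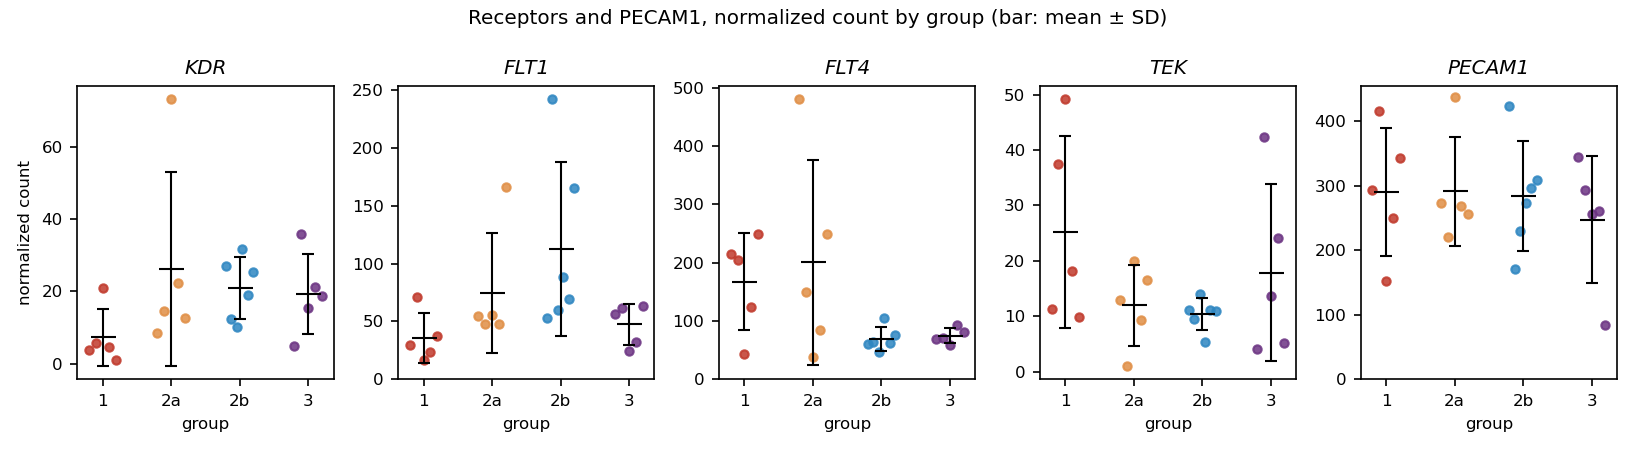
Normalized counts of the VEGF receptors KDR, FLT1 and FLT4, the angiopoietin receptor TEK and PECAM1 by group, with 1 point per sample and bars for the mean and the SD (linear axes). FLT4 is spread between 37.8 and 481 in groups 1 and 2a and lies between 46.5 and 105 in groups 2b and 3, while PECAM1 overlaps in all 4 groups.

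Among the reads of the 3 VEGF receptors, FLT4 held 76.3% ± 13.7, 58.9% ± 24.2, 36.4% ± 10.1 and 53.7% ± 8.44 in groups 1, 2a, 2b and 3, respectively. FLT1 held 17.2% ± 5.60, 27.2% ± 11.2, 52.1% ± 14.7 and 32.9% ± 9.20 in the same order. By mean share, FLT4 was thus the leading VEGF receptor in groups 1, 2a and 3, and FLT1 led in group 2b. Single samples differed from this. FLT4 lay above FLT1 in replicates 1 and 4 of group 2b, and KDR lay above both in replicate 3 of group 2a. KDR held between 6.57% and 13.9% on average.

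FLT4 and KDR ran against each other within the tumor cell-rich groups but not within the lymphocyte-rich groups. After the mean of each group was subtracted on the log2 scale, the Pearson correlation of FLT4 and KDR was -0.92 over the 10 tumor cell-rich and 0.49 over the 11 lymphocyte-rich samples, given here as a description. That of FLT4 and VEGFB was -0.83 and 0.13, respectively. Over all 21 samples the values were -0.64 for KDR and -0.63 for VEGFB, and without replicates 1 and 3 of group 2a, the 2 samples farthest from the median in FLT4, they were -0.45 and -0.35. Within the tumor cell-rich samples alone, the correlations without these 2 samples were not computed. KDR had between 1 and 23 reads per sample in group 1, so its log2 values there are imprecise. The same samples, with the same size factors, enter both values of a pair. Replicate 3 of group 1 and replicate 3 of group 2a held the lowest FLT4 and the highest KDR and VEGFB of their groups. These libraries also stood at an end of their group in other markers. In replicate 3 of group 1 the summed T cell markers were the highest of the tumor cell-rich samples (1753) and the summed endothelial markers the lowest of all samples (607). In replicate 3 of group 2a the summed endothelial markers were the highest of the tumor cell-rich samples (1495). The part of these differences in the correlations was not tested.

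**Figure D3:**
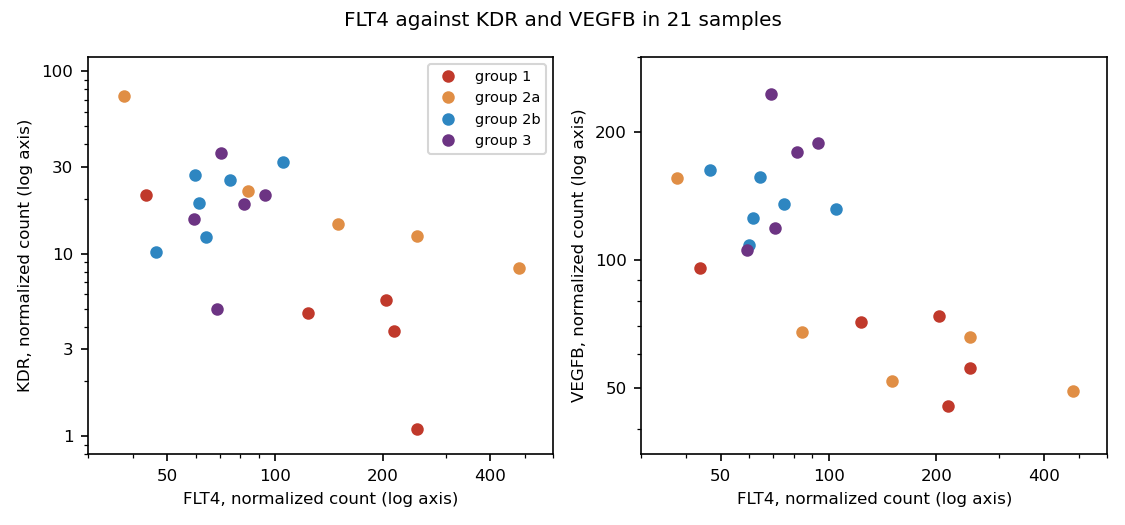
Normalized counts of KDR (left) and VEGFB (right) against those of FLT4 in 21 samples, with 1 point per sample, colors for the groups and log axes. The points with the lowest FLT4, 37.8 in group 2a and 43.7 in group 1, carry the highest KDR of their groups (73.3 and 20.9), and 7 tumor cell-rich samples lie to the right of all lymphocyte-rich samples.

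TEK, the receptor of the angiopoietins, lies on chromosome 11 at 45518478 to 45616970 and was low throughout. Group by group, normalized counts were 11.3, 37.4, 49.2, 18.1 and 9.83 in group 1 and 13.0, 1.04, 19.996, 9.36 and 16.5 in group 2a. They ran from 5.3 over a median of 11.0 to 14.0 in group 2b, and in group 3 they were 4.0, 42.4, 13.6, 24.2 and 5.24. Group 2b lay in a narrow range, group 1 reached from inside it to well above, and group 3 held samples below, within and above it.

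TEK averaged 25.2 ± 17.3 in group 1, 17.9 ± 15.9 in group 3, 11.97 ± 7.28 in group 2a and 10.3 ± 2.85 in group 2b. No neighbours in this order passed the test, and group 2b lay 2.44-fold below group 1 (log2FC -1.28, SE 0.45, adjusted p = 0.045). In this comparison of stage 1 tumor cell-rich with stage 2 lymphocyte-rich areas, 5 of the 8 members tested reached an adjusted p of 0.05 or less, beside 30.1% of all genes. They were VEGFB, VEGFC and FLT1, which were higher in group 2b, and FLT4 and TEK, which were lower. The 2 groups also differ in DV200 and in the pooling of dogs. No alternative fit was run for this comparison, so how far these calls depend on either was not tested. Between the areas, TEK had a log2FC of -0.35 (SE 0.43, adjusted p = 0.59), which was -0.99 (adjusted p = 0.13) with the DV200 as a covariate.

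The angiopoietins were close to the limit of detection. ANGPT1 lies on chromosome 13 at 8284694 to 8525154 and ANGPT2 on chromosome 16 at 55977188 to 56030293. ANGPT1 had no read in 13 of the 21 samples and more than 3 reads in 7, with 46 reads in all. A sample with 0 reads allows a level of up to 3 counts by counting error alone. Its highest normalized counts were 12.2 in replicate 3 of group 2a and 9.07 in replicate 4 of group 3, and in group 1 only replicate 2 had reads (1.87). ANGPT1 was below the count filter in all comparisons, and its exact 2-sided permutation tests between the groups of the same area or of the same stage gave p-values between 0.44 and 0.91. A difference was not detectable at this depth.

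ANGPT2 had 158 reads in all. Normalized counts were 0, 0, 3.64, 4.72 and 4.37 in group 1 and 4.64, 0, 6.67, 12.9 and 1.94 in group 2a. In group 2b they ran from 0 over a median of 4.91 to 15.9, and in group 3 they were 0, 45.3, 11.6, 20.1 and 6.28. The highest values, replicates 2 and 4 of group 3, belonged to the group that also held a sample with no read. ANGPT2 passed the count filter in the comparison of areas alone, where its log2FC was 1.39 (SE 0.72, adjusted p = 0.16). Between groups 3 and 1, the exact 2-sided permutation test gave p = 0.13, where the smallest p that this design allows is 0.0079.

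PECAM1, an adhesion molecule of endothelial junctions that is also carried by platelets and leukocytes, lies on chromosome 9 at 14705590 to 14758833. Its normalized counts were 293, 416, 152, 249.5 and 342 in group 1 and 273, 219.9, 437, 269 and 256 in group 2a. In group 2b they ran from 170.5 over a median of 285 to 423, and in group 3 they were 344, 293, 255, 259.9 and 83.8. The 4 groups overlapped widely, and the lowest value was replicate 5 of group 3.

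The means of PECAM1 were 291 ± 84.1 in group 2a, 290.4 ± 98.9 in group 1, 283 ± 84.96 in group 2b and 247 ± 97.95 in group 3. No pair of groups passed the test. The log2FC between the areas was -0.14 (SE 0.21, adjusted p = 0.68), and it lay between -0.22 and -0.026 over the 21 fits without 1 sample.

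Between stages of the same area, the members gave no call. The power to see a 2-fold change was low there. With 200 genes changed in simulated data, 1% of 2-fold and 80% of 4-fold changes were found between the tumor cell-rich groups. Between the lymphocyte-rich groups, 38.5% and 84.5% were found, respectively. The lack of calls therefore says little about 2-fold changes, above all between the tumor cell-rich groups. In group 2a against group 1, both edgeR and DESeq2 called 0 of 8 members. KDR and FLT1, 2 of the 8, had an unadjusted p under 0.05, beside 17.9% of all genes. In group 3 against group 2b, both tools likewise called 0 of 8 members. VEGFC and FLT1, both with negative fold changes, were the 2 of 8 with an unadjusted p under 0.05, beside 13.1% of all genes. In group 3 against group 1, VEGFB was the 1 DEG among 8 members, beside 8.33% of all 11470 genes. The comparisons of areas, of groups 2b and 2a and of groups 3 and 1 share samples and do not count as separate evidence.

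**Figure D4:**
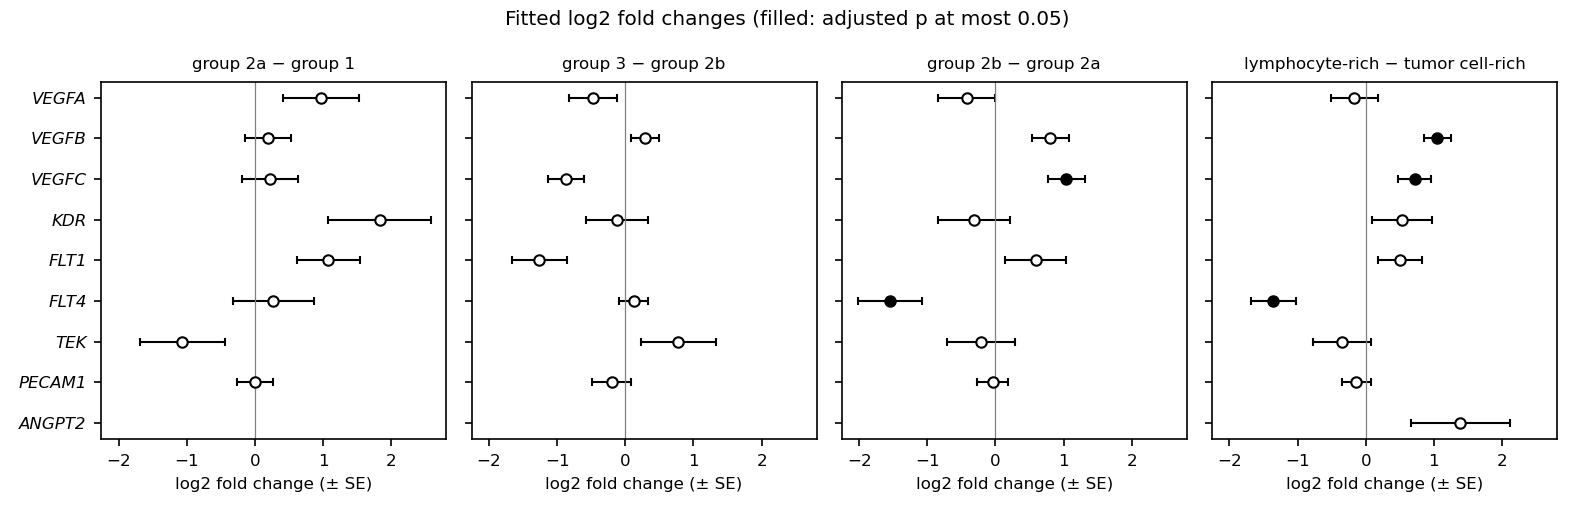
Fitted log2FCs of the members with their SE in 4 comparisons, where filled points have an adjusted p of at most 0.05 and a missing point marks a gene below the count filter. Filled points are VEGFC and FLT4 in group 2b against group 2a, and VEGFB (1.05), VEGFC (0.72) and FLT4 (-1.36) in lymphocyte-rich against tumor cell-rich areas.

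Other genes of the VEGF pathway were compared between the areas, with log2FCs given as lymphocyte-rich minus tumor cell-rich. Of 27 pathway partners measured, 23 were tested. Of these, 7 were higher and 1 was lower at an adjusted p of at most 0.05, beside 15.2% of all genes higher and 14.3% lower, and 15 did not pass. The median log2FC was 0.47 in the list and 0.01 over all genes tested. PLCG1, a phospholipase that KDR activates and that T cell receptors also use, averaged 86.3 in tumor cell-rich and 255 in lymphocyte-rich samples (log2FC 1.56, adjusted p = 1.7e-06). NRP2, a co-receptor of VEGF-C, averaged 171 and 449.8 (log2FC 1.39, adjusted p = 0.0004). PGF, the placental growth factor that binds FLT1, averaged 17.1 and 38.7 (log2FC 1.18, adjusted p = 0.0035).

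PTPRB, an endothelial phosphatase that acts on TEK, averaged 51.5 in tumor cell-rich and 114 in lymphocyte-rich samples (log2FC 1.20, adjusted p = 0.00036). PXN, a protein of focal adhesions, was also higher (log2FC 0.71, adjusted p = 0.0072). ADAMTS1, a secreted protease that can bind VEGF-A, was the 1 gene of the list that was lower, with averages of 126 and 51.7 (log2FC -1.20, adjusted p = 0.0055). Against group 2a alone, ADAMTS1 was lower in group 2b (log2FC -1.64, adjusted p = 0.010), while PTPRB gave a log2FC of 0.79 (adjusted p = 0.099) there. NRP1, a co-receptor of VEGF-A, averaged 194 and 144 (log2FC -0.42, adjusted p = 0.10).

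Of 21 endothelial markers measured, 20 were tested, of which 4 were higher, 0 were lower and 16 did not pass, with a median log2FC of 0.33. CD34, a sialomucin of endothelium and stromal cells, averaged 83.0 in tumor cell-rich and 176 in lymphocyte-rich samples (log2FC 1.08, adjusted p = 6.4e-05). ICAM2, an adhesion molecule of endothelium and lymphocytes, averaged 34.4 and 72.7 (log2FC 1.07, adjusted p = 0.00012). CLDN5, a claudin of endothelial tight junctions, averaged 18.3 and 41.2 (log2FC 1.17, adjusted p = 0.0024), and EGFL7, secreted by endothelium, averaged 57.4 and 94.7 (log2FC 0.69, adjusted p = 0.015). VWF, a clotting factor stored in endothelium, averaged 251 and 320.1 (log2FC 0.32, adjusted p = 0.22). The share of the list that was higher was near the background of 15.2%.

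Genes of activated and high endothelial venules, the vessels through which lymphocytes leave the blood, gave 4 higher and 0 lower among the 6 of 9 genes tested, beside 15.2% of all genes higher and 14.3% lower, with a median log2FC of 0.94. CHST2, a sulfotransferase that builds L-selectin ligands, averaged 121 in tumor cell-rich and 571 in lymphocyte-rich samples (log2FC 2.24, adjusted p = 1.5e-05). VCAM1, which captures leukocytes, averaged 4.96 and 19.5 (log2FC 1.90, adjusted p = 0.022). It was below the count filter in group 2a against group 1, so it entered the comparisons of areas mainly through the lymphocyte-rich samples, where it was higher. The count of higher genes and the median of this list are therefore tilted upward. ICAM1 had a log2FC of 0.95 (adjusted p = 0.00048), and SELE, a selectin of inflamed endothelium, one of 0.92 (adjusted p = 0.014). The genes that best define high endothelial venules were nearly without reads, and the averages of CHST4, FUT7 and MADCAM1 were at most 0.188 normalized counts in either area. SELP (log2FC 0.89, adjusted p = 0.12) and ACKR1 did not pass. The summed count of the list was between 208 and 699 in tumor cell-rich and between 860.4 and 1423 in lymphocyte-rich samples. Most of this sum came from CHST2 and ICAM1, and ICAM1 averaged 228.5, 183, 359 and 437 in groups 1, 2a, 2b and 3. The sum therefore says little of the other genes of the list. The summed T cell markers were also higher in the lymphocyte-rich samples, whose areas were chosen for lymphocytes. Whether the 2 sums vary together within the groups was not tested, nor was the part of T cells in the sum of this list.

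Pericyte and smooth muscle markers gave 0 calls among 8 tested in edgeR, where 2 had an unadjusted p under 0.05, with a median log2FC of 0.35. Of 14 hypoxia genes, 3 passed the test, a share below the 29.5% of all genes. PDK1, which limits the entry of pyruvate into mitochondria (log2FC 1.19, adjusted p = 0.00025), and ENO1, an enzyme of glycolysis (0.67, adjusted p = 0.022), were higher. SLC2A1, a glucose transporter, was lower (-0.73, adjusted p = 0.039). Among markers of other cells, all 8 T cell markers tested were higher, led by CD5 (log2FC 2.71, adjusted p = 9.7e-06), beside 15.2% of all genes. Among 13 keratinocyte markers, TP63 was lower (-1.38, adjusted p = 0.0042) and 12 did not pass, beside 14.3% of all genes lower. Fibroblast markers gave 0 calls among 9 in edgeR, where 1 had an unadjusted p under 0.05. Among 8 histiocyte markers CDH1, an adhesion molecule of Langerhans cells and epithelium, was lower (-0.92, adjusted p = 0.039) and 7 did not pass. The log2FC was above 0 for 5 of these 8, with a median of 0.16.

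**Figure D5:**
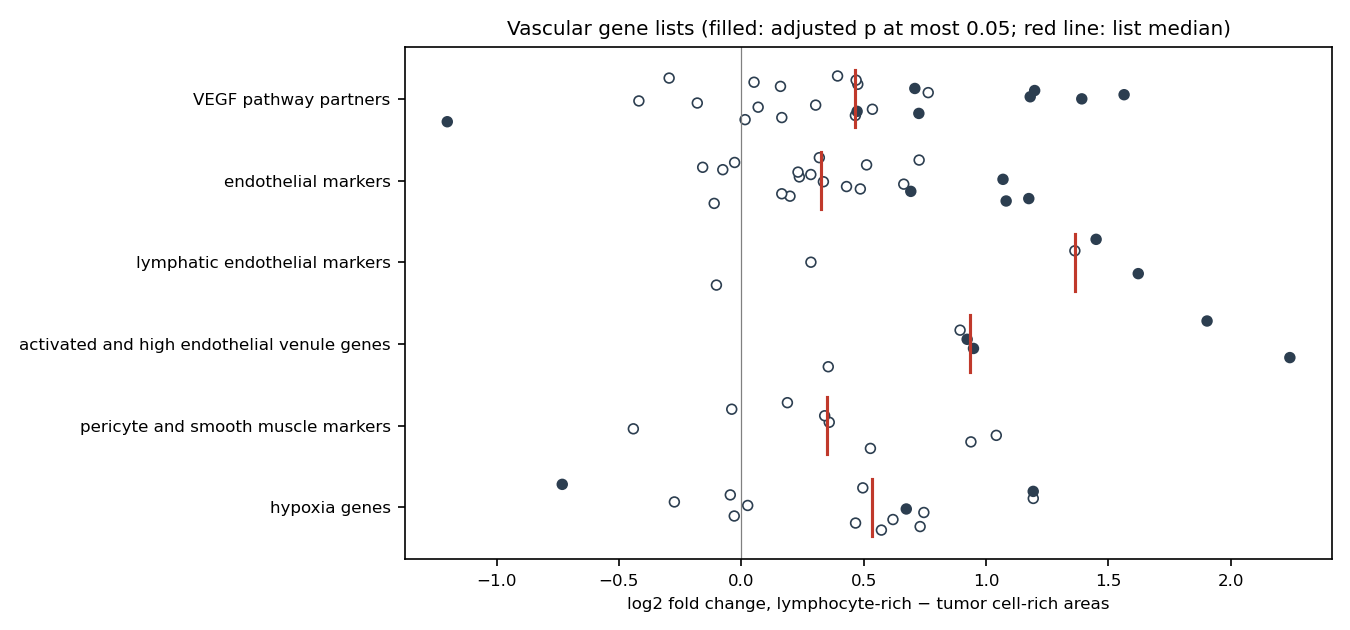
Fitted log2FCs between lymphocyte-rich and tumor cell-rich areas for 6 gene lists of the vessel wall, the VEGF pathway and hypoxia, with 1 point per gene, filled points for an adjusted p of at most 0.05 and a red line at the median of each list. The medians are 0.47 for pathway partners, 0.33 for endothelial markers, 0.94 for activated and high endothelial venule genes and 0.35 for pericyte and smooth muscle markers.

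Within stage 2 alone, in group 2b against group 2a, 4 pathway partners were higher and 1 was lower among 22 tested, 3 of 18 endothelial markers were higher, and 3 of 6 genes of activated and high endothelial venules were higher, beside 8.9% of all genes higher and 7.64% lower. In group 2a against group 1, 0 of 103 genes tested over all 10 lists reached an adjusted p of 0.05 or less in edgeR, while 22 had an unadjusted p under 0.05, beside 17.9% of all genes. In group 3 against group 2b, 0 of 110 reached an adjusted p of 0.05 or less and 26 had an unadjusted p under 0.05, beside 13.1% of all genes.

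The genes whose pattern within the groups was most like that of a member were looked up among 11486 genes, by the Pearson correlation of log2 values over the 21 samples after the group means were subtracted. FLT4 was followed most closely by RPP25 (0.93), CAT (0.88), which encodes catalase, and IL18BP (0.85), a decoy that binds interleukin 18. FLT1 was followed by GCLM (0.83), an enzyme of glutathione synthesis, and MS4A7 (0.82), a membrane protein of macrophages. PECAM1 was followed by ASPN (0.86), a matrix proteoglycan, and its closest genes also held EMCN (0.82), an endothelial sialomucin. VEGFA was followed by TRMT44 (0.86), VEGFB by APOC1 (0.84), KDR by MROH1 (0.81), TEK by CHPF (0.75) and VEGFC by CLCN3 (0.72). These are descriptions of shared variation over the same 21 libraries. Among the members themselves, the highest of these correlations were those of TEK with ANGPT1 (0.56), KDR (0.53) and ANGPT2 (0.49), each of which rests on low counts.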

How the data were processed

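The authors trimmed and filtered the QuantSeq 3′ reads with Cutadapt and aligned them with STAR to UU_Cfam_GSD_1.0, and the submitters' processing notes also name featureCounts and DESeq2. Versions, the handling of strand and of reads that match several places are not given in the sources used here. Raw counts of each gene in every library were deposited, next to a signal, the normalized count. When checked, this signal was the raw count over 1 size factor of its library. Its mean was deposited too. The deposited log2 fold changes, their standard errors and the deposited p-values and adjusted p-values are the authors' own comparisons and were not used. Both deposited tables held the same counts, and 0 columns belonged to an unknown sample. Rows are named by symbol with a numbered ending, which was removed. Positions of all 10 members were taken from the RefSeq annotation of the same assembly.

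Groups follow the sample labels, as do replicate numbers. The quasi-likelihood F-test of edgeR 4.0.16 (R 4.3.3) with TMM factors and Benjamini-Hochberg adjustment was run on raw counts of the samples of the compared groups, or all 21 samples for the comparison of areas. Genes with at least 10 counts in at least 5 samples were tested. The SE is the log2 fold change divided by the square root of F. A call needs an adjusted p no higher than 0.05, and a DEG also a log2FC of 1 or more in either direction. Single genes were also tested by 2-sided permutation of the samples, exact for groups under 10, on log2(normalized count + 1), with Python 3.11.15, numpy 2.4.6, scipy 1.17.1 and pandas 2.3.3. Figures were drawn with matplotlib 3.10.9. The tests were tried on simulated data. Alternatives were DESeq2 1.42.0, its size factors in edgeR, no count filter, all 4 groups in 1 fit, the replicate number as a block, DV200 as a covariate, group 2a or 2b left out, group 2b reduced to its pooled or to its single-dog samples, pseudocounts of 0.5 and 5, and each sample left out in turn.

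P-values measure the spread between samples, mostly 1 dog each. Floors of 3 counts cover counting error only. The members, lists and tests were chosen with earlier results of these data known. Named are all members, up to 6 genes per list with the smallest adjusted p of at most 0.05 between the areas, and the 5 genes most like each member, of which the closest are printed. NRP1, PROX1, LYVE1, VWF, CHST4, FUT7 and MADCAM1 were named after their values were seen, as defining genes of their lists. SELP, ACKR1, CD74 and ITGB2 were also named after their values were seen. CDH5, SHANK3 and AQP1 were not analysed here.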

Additional observations from a re-analysis of the deposited data

Results flagged for a closer look

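A sample was singled out when its gap to the nearest other sample of its group was large against the range of the group by Dixon's test. Of 40 groups of values tested (10 members in 4 groups), 9 gave such a sample, where chance gives about 1 in 20 for independent values with a normal distribution. The normalized counts were not put on a log scale, the groups of values share their samples, and all 9 samples were the highest of their group. The rate of 1 in 20 is therefore only a rough guide here. The causes were not tested.

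Replicate 3 of group 2a gave 4 of them. Its normalized counts were 724 for VEGFA against 154 to 215 in the other samples of the group, 156 for VEGFB against 49.2 to 67.8, 73.3 for KDR against 8.35 to 22.2, and 437 for PECAM1 against 219.9 to 273. Replicate 5 of group 2a had 167 normalized counts of FLT1 against 47.9 to 55.5 in the others. In group 1, replicate 3 had 20.9 normalized counts of KDR against 1.09 to 5.62, and replicate 2 had 85.2 of VEGFC against 21.9 to 37.1. The 1.87 normalized counts of ANGPT1 in replicate 2 of group 1, the sole sample of the group with any, came from 2 reads. Replicate 5 of group 3 had 318 normalized counts of VEGFA against 93.7 to 149 in the others.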

How the results depend on the processing

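Values are in the order of the comparisons' names, and the counts of DEGs among the members are the first results given. In group 2b against group 2a the count was 2, with 1 under the replicate block, 0 with group 2b reduced to its pooled samples, 0 with group 2b reduced to those of a single dog, and 0 to 3 with 1 sample left out. In group 3 against group 1 it was 1, with 2 in DESeq2, 2 without the count filter, 0 with DV200 as a covariate and 1 to 2 with 1 sample left out. Between the areas it was 2, with 1 with DV200 as a covariate, where VEGFB had a log2 fold change of 0.97 (adjusted p = 0.0054), 1 without group 2b, and 1 to 2 with 1 sample left out. Without replicate 1 of group 1 or of group 2a, replicate 2 of group 2a or replicate 1 of group 3 it was 1. In the comparisons of stages it stayed at 0 in all alternatives run. Most simulated 2-fold changes were missed in these comparisons, so this count does not show that such changes are absent.

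The replicate number is no pairing, since the same number stands for different dogs and the correlations of same-numbered samples ran from -0.27 to 0.14. The replicate block lifted VEGFB in group 2b against group 2a past the threshold (0.92, adjusted p = 0.036), left FLT4 there short of it (-1.18, adjusted p = 0.17) and changed no other call.

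Directions turned only for values that had not passed the test. With DV200 as a covariate, the log2 fold change of VEGFB in group 2a against group 1 was -0.46, and in group 3 against group 2b those of FLT4 and PECAM1 were -0.062 and 0.00036. With group 2b reduced to the samples of a single dog, PECAM1 in group 2b against group 2a was 0.044 and VEGFA between the areas 0.018. Without group 2a, VEGFA between the areas was 0.31. Without group 2b, FLT1 and TEK between the areas were -0.12 and 0.050. With a pseudocount of 5, the log2 difference of ANGPT1 in group 2b against group 2a was -0.034. With 1 sample left out, the log2 fold changes in group 2a against group 1 ran from -0.21 to 0.34 for VEGFB, -0.34 to 0.54 for FLT4 and -0.18 to 0.17 for PECAM1. In group 3 against group 2b they ran from -0.47 to 0.12 for KDR and -0.34 to 0.021 for PECAM1. In group 2b against group 2a they ran from -0.70 to 0.29 for VEGFA, -0.55 to 0.54 for KDR, -0.19 to 0.15 for PECAM1 and -0.51 to 0.039 for TEK. For VEGFA they ran from -0.38 to 0.23 in group 3 against group 1 and from -0.40 to 0.19 between the areas. The causes were not tested. KDR, TEK, ANGPT1 and ANGPT2 rest on few reads, which limits their precision.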
